A study of Mus musculus with 22 samples.

Results

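The genes described here are 36 aminoacyl-tRNA synthetases, 20 cytosolic and 16 mitochondrial, chosen by gene symbol from the 52636 genes of the deposited table: symbols without a trailing 2 were taken as cytosolic and symbols with one as mitochondrial. The rule itself uses no measured value, and all 36 passed the filter on low values in each of the 11 comparisons. The libraries came from duodenal organoids that were grown from outbred, wild type CD1 mice aged 2 months, with 1 mouse behind each of 4 organoid lines. The labels name the cells stem cells. Untreated organoids of lines 1, 2, 3 and 4 were compared with organoids of lines 1, 2 and 4 exposed to cold atmospheric plasma (CAP), a helium jet run at 50 W for 60 s, and the question was which transcripts the plasma changed and by which route.

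Each of the 6 treated groups held 3 libraries, 1 per line. In the direct 30 min group, by the paper's design, the jet was applied to the cultures at day 1 and the medium was replaced after 30 min. In the direct 24 h group the treated medium stayed for 24 h. The paper also words the direct 30 min group as an early time after treatment, with regeneration and oxidative stress genes already induced. Whether that group stands for a brief exposure or an early harvest is therefore uncertain. In the indirect groups, organoids received medium taken from another treated culture, and in the plasma-activated medium (PAM) groups they received medium that had been treated with no organoids in it. Both were given from day 1 or from day 2 and the endpoint was day 3. By the paper, fresh medium replaced the day 1 treatment at day 2. The day 2 groups instead received medium that had been treated at day 1, and kept it until the endpoint. The labels give 30 min for the indirect and PAM groups called day 1 here and 24 h for those called day 2, whereas the methods of the study describe an exposure of 24 h, so that the dosing time of these groups is uncertain.

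Aminoacyl-tRNA synthetases join each amino acid to its tRNA, the step that supplies the ribosome. In animals most amino acids have 1 nuclear gene for the cytosolic enzyme and another for the enzyme imported into mitochondria, where a separate ribosome translates the few proteins of the respiratory chain encoded by mitochondrial DNA. Kars and Gars are exceptions, since each gene supplies both compartments. Several cytosolic enzymes sit together in the multi-synthetase complex and the others lie outside it. Genes of the cytosolic set are known targets of the transcription factor ATF4, which cells switch on when uncharged tRNA or other stresses lead to phosphorylation of eIF2α.

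Motifs for ATF4 with its C/EBP partner lie around the starts of some of these genes, and 3 stretches are shown because they carry such a match in genes of the cytosolic set. A RefSeq promoter (GRCm38.p6, 300 bases around a start) was matched for 27 of the 36 genes, 13 of 20 cytosolic and 14 of 16 mitochondrial. The motif searched was TGATGNAA on both strands, together with its stricter form TGATGCAA, which is a subset of it. In each line the 60 bases run 5′ to 3′ on the strand of the gene, and the capitals mark the match.
Aars, chr8:111033704-111033763, plus strand: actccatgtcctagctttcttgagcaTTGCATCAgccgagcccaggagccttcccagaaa
Gars, chr6:55037941-55038000, plus strand: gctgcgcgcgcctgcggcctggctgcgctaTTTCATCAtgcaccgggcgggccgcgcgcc
Tars, chr15:11399659-11399718, minus strand: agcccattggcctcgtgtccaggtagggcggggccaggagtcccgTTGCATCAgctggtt

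These 3 matches begin 112, 30 and 15 bases before the start, and all lie on the strand opposite to the gene. Iars and Yars held the stricter form 8 and 4 bases past the start, and Aars held a second match of the looser form. The looser form was thus found for 5 of 13 cytosolic genes and for 0 of 14 mitochondrial genes, against 3.969% of 32851 mouse promoters of the same length. The stricter form was found for 4 of 13 cytosolic genes, against 0.895% of all promoters. Cars and Wars are among the genes with no promoter matched. Promoters on the chromosome that holds Nars were left out of the search for members, so Nars was not looked for. Sars and Eprs were searched and held no match in these 300 bases. A match to these letters is a description of sequence only.

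Values are reads per gene scaled by the authors to 20 M per library and rounded up, and log2 fold changes are on the log2(value + 1) scale. The steps among the low values gave a depth of 19.9 to 28.7 M counted reads per library. Genes past the threshold, which took the cut-offs of the study, had an adjusted p under 0.01 by limma and differed by 1 or more on the log2 scale. The study applied these cut-offs with edgeR, so the genes past them here need not be those it called. "Rose" and "fell" are used for any adjusted p under 0.05. Markers of epithelium were high in every library, while 7 markers of other cell types summed to between 40 and 108 per library. The 5 stem cell markers summed to between 32557 and 38876 in untreated libraries and to between 757 and 2747 in the PAM day 2 libraries. In bulk libraries such as these, fewer cells of a type and less RNA per cell cannot be told apart. The 4 Paneth cell markers summed to between 20896 and 29593 untreated and to between 3648 and 15499 in PAM day 1. The 5 goblet cell markers summed to between 75553 and 132265 untreated and to between 17497 and 46618 in PAM day 2. In PAM day 1, however, the goblet sums were 82023 to 183767. The 6 enterocyte markers summed to between 76993 and 98817 untreated and to between 113110 and 133370 in PAM day 2. Of these 6 markers, 1 rose and 2 fell in that group. These marker levels moved with the treatments, and their part in the synthetase changes was not tested.

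In untreated organoids, values per kilobase of exon were higher for the cytosolic genes than for most of the mitochondrial genes. The cytosolic median was 626 per kilobase, from 172 for Cars to 1335 for Gars, the glycyl-tRNA synthetase. The mitochondrial median was 135 per kilobase, from 56.6 for Wars2 to 356 for Iars2. The orders overlapped: Yars, Eprs and Cars, at 284, 249 and 172 per kilobase, lay among the mitochondrial genes. Gars stood clear of the gene below it, Nars, at 1335 ± 140 against 1033 ± 34.8 per kilobase (SD, n = 4). Wars and Rars, at 832 ± 93.1 and 830 ± 54.6 per kilobase, did not differ beyond their spread, nor did Cars and Hars2, at 163 to 182 and 160 to 184 per kilobase. Exon lengths were unions over all annotated transcripts, which lowers the values of genes with long rare exons.

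Across the 9 libraries of the direct 24 h, indirect day 1 and PAM day 1 groups, pooled as the day 1 comparison, more cytosolic synthetase genes rose than fell and mitochondrial ones fell against the 4 untreated libraries. Of the 20 cytosolic genes, 7 rose and 2 fell, beside 14.8% of all 18490 genes tested that rose and 18.7% that fell. Of the 16 mitochondrial genes, 0 rose and 10 fell. After quantile normalization, 1 mitochondrial gene rose and 8 fell. The 9 libraries are 3 from each of 3 lines and were fitted as independent, and with the line as a block 6 cytosolic genes rose, 1 fell and 7 mitochondrial genes fell, 14 members instead of 19, where 32.0% of all genes were called. The median log2 fold change was 0.11 for the cytosolic genes, -0.32 for the mitochondrial genes and -0.05 for all genes tested. None of the 36 passed the threshold, which 6.34% of all genes did. All changes were thus below a doubling, the largest being a 1.48-fold rise of Cars and a fall of Aars2 to 0.609 of its untreated level.

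The genes that rose were Cars, Sars, Nars, Wars, Gars, Aars and Eprs. Cars, the cysteinyl-tRNA synthetase, changed by 0.57 ± 0.09 (SE) with an adjusted p of 0.000655, and Sars, the seryl-tRNA synthetase, by 0.49 ± 0.08 with an adjusted p of 0.000701. Eprs, which encodes the enzyme for both glutamate and proline, was the only 1 of the 8 genes of the multi-synthetase complex that rose, by 0.27 ± 0.10 (adjusted p = 0.0470). Of the 12 other cytosolic genes, 6 rose and 1 fell. The genes that fell were Dars, for aspartate, and Farsb, the β-subunit of the phenylalanyl-tRNA synthetase. Of the 10 mitochondrial genes that fell, Aars2 changed by -0.72 ± 0.12 (adjusted p = 0.000731), Yars2 by -0.65 ± 0.13 (adjusted p = 0.00197) and Ears2 by -0.59 ± 0.13 (adjusted p = 0.00331). Lars2, at 0.19, and Vars2, at 0.03, were the mitochondrial genes with a value above 0. The share of all genes whose treated and untreated libraries did not overlap was 7.16% higher and 10.5% lower, and 6 of 20 cytosolic genes were wholly higher and 1, Farsa, was wholly lower, while 6 of 16 mitochondrial genes were wholly lower. Kars and Gars did not carry the count, since 6 of the other 18 cytosolic genes rose and 2 fell. The count depended on single libraries: without untreated line 1, 11 members in all passed an adjusted p of 0.05 instead of 19, and without untreated line 3, 12 did.

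**Figure D1:**
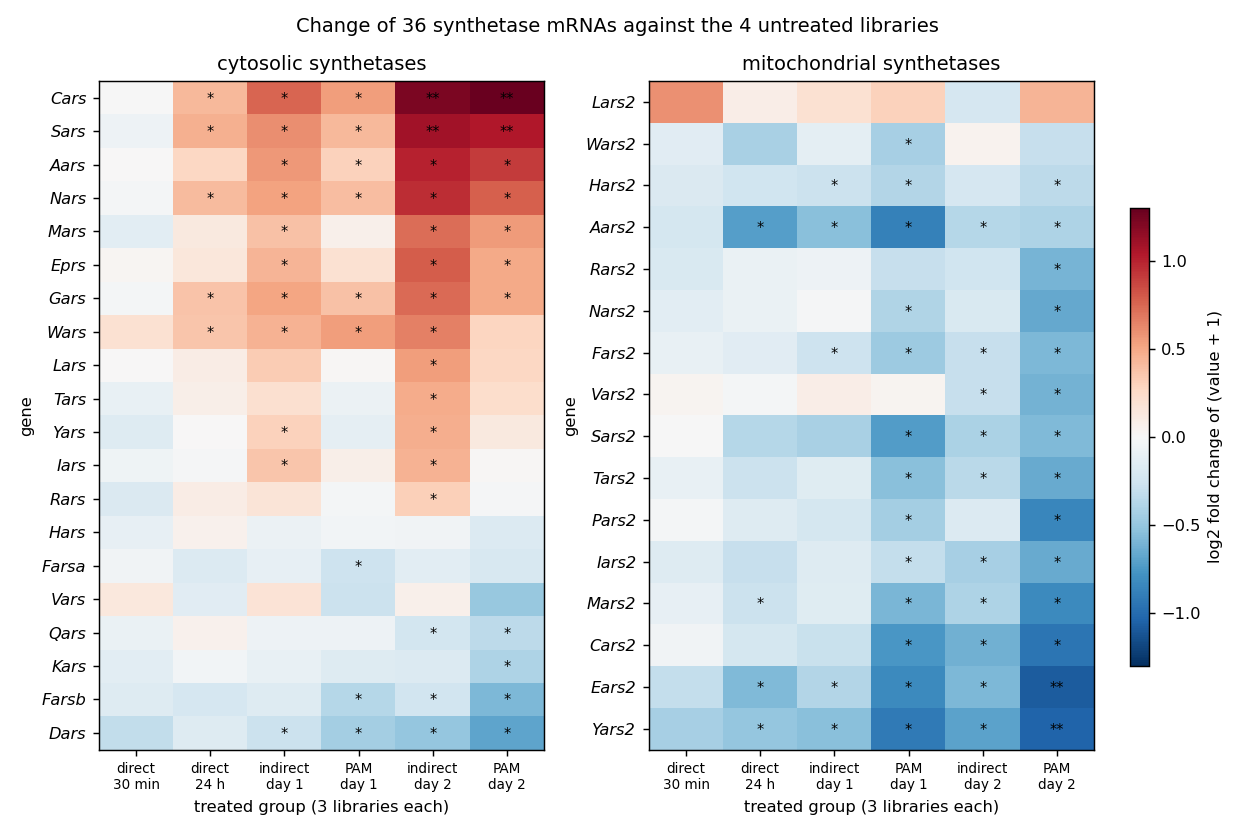
Log2 fold change of each synthetase mRNA (rows, cytosolic left and mitochondrial right, ordered by the mean of both day 2 groups) in each of the 6 treated groups of 3 libraries against the 4 untreated libraries, with 1 star for an adjusted p under 0.05 and 2 stars past the threshold. Red cells at the top left are cytosolic genes led by Cars, which reached 1.28 in PAM day 2, and blue cells on the right are mitochondrial genes led by Yars2 and Ears2, at -1.04 and -1.08 in that group.

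With direct treatment labelled 30 min, whether a brief exposure or an early harvest, no synthetase passed either test. In the direct 30 min group the cytosolic median was -0.06 and the mitochondrial median -0.13, beside 0.02 for all genes. By limma, 0 of 36 members had an adjusted p under 0.05 and 4 had an unadjusted p under 0.05. Across all 17731 genes 0.00564% were called, a single gene, and 24.9% had an unadjusted p under 0.05. Cars was measured at 1092, 1202 and 1070 in lines 1, 2 and 4, against 1075 to 1199 in untreated libraries. Yars2, the mitochondrial tyrosyl-tRNA synthetase, was at 625, 674 and 518, below all untreated libraries, with a log2 fold change of -0.43 ± 0.11 and an adjusted p of 0.111.

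With direct application for 24 h, 5 cytosolic genes rose (Cars, Sars, Nars, Gars and Wars) and 0 fell, beside 7.05% of 17335 genes that rose and 10.2% that fell. Of the mitochondrial genes, 0 rose and 4 fell (Aars2, Ears2, Yars2 and Mars2). The median was 0.09 for cytosolic and -0.27 for mitochondrial genes, beside -0.08 for all genes. With the organoid line as a block, 2 cytosolic genes rose and 2 mitochondrial genes fell, 4 of 36 members where 12.8% of all genes were called. Leaving out any 1 of the 7 libraries left 4 to 6 members called instead of 9. The comparison of direct 24 h with direct 30 min, which uses no untreated library, gave no member an adjusted p under 0.05 out of 36 and 6 an unadjusted one, where 0% of all genes were called and 21.4% had an unadjusted p under 0.05. With the line as a block, which called 8.14% of all genes, Cars was higher by 0.43 ± 0.11 (adjusted p = 0.0482) and Sars by 0.53 ± 0.11 (adjusted p = 0.0283), and Aars2 differed by -0.49 ± 0.12 (adjusted p = 0.0481).

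With indirect treatment from day 1, 10 of 20 cytosolic genes rose (Cars, Sars, Aars, Nars, Gars, Wars, Eprs, Mars, Iars and Yars) and Dars fell, beside 10.2% and 10.4% of 17818 genes. Of the mitochondrial genes 5 fell (Aars2, Ears2, Fars2, Hars2 and Yars2) and 0 rose. The median was 0.32 for cytosolic genes and -0.20 for mitochondrial genes, beside 0.00 for all genes. With the line as a block, 7 cytosolic genes rose, 0 fell and 2 mitochondrial genes fell, 9 of 36 members where 21.7% of all genes were called. Leaving out any 1 library left 8 to 11 members called instead of 16. The difference between this group and direct 24 h was not tested.

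With PAM from day 1, 13 of 16 mitochondrial genes fell and 0 rose, against 26.6% of 17357 genes that fell. The cytosolic genes were divided, with 6 that rose (Cars, Sars, Aars, Nars, Gars and Wars, against 15.2% of all genes) and 3 that fell (Dars, Farsa and Farsb). The median was -0.01 for cytosolic and -0.46 for mitochondrial genes, beside -0.13 for all genes. The sign of that cytosolic median depended on scaling, since it was 0.04 after quantile normalization and 0.12 after median-of-ratios scaling, which moved the median of all genes by 0.120. Under either of these scalings, 10 mitochondrial genes fell and 1 rose. Set directly against direct 24 h, no member of 36 had an adjusted p under 0.05 and 5 had an unadjusted one, beside 0.258% of all genes called and 10.4% with an unadjusted p under 0.05. With the line as a block, which called 2.90% of all genes, Cars2 differed by -0.54 ± 0.12 (adjusted p = 0.0452).

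In direct 24 h, indirect day 1 and PAM day 1 taken singly, 0 of 36 members passed the threshold, which 2.17%, 1.31% and 10.2% of all genes did.

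With indirect treatment from day 2, 13 cytosolic genes rose and 3 fell, beside 20.3% and 23.5% of 17860 genes, and 10 mitochondrial genes fell while 0 rose. The medians were 0.48 and -0.33, beside -0.01 for all genes. With PAM from day 2, 7 cytosolic genes rose (Cars, Sars, Aars, Nars, Mars, Eprs and Gars) and 4 fell (Dars, Farsb, Kars and Qars), beside 18.5% and 29.1% of 17694 genes. Of the 16 mitochondrial genes there, 14 fell and 0 rose, Lars2 and Wars2 being the others. The medians there were 0.18 and -0.64, beside -0.12 for all genes. All treated groups were compared with the same 4 untreated libraries, so that these comparisons are not independent of each other.

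**Figure D2:**
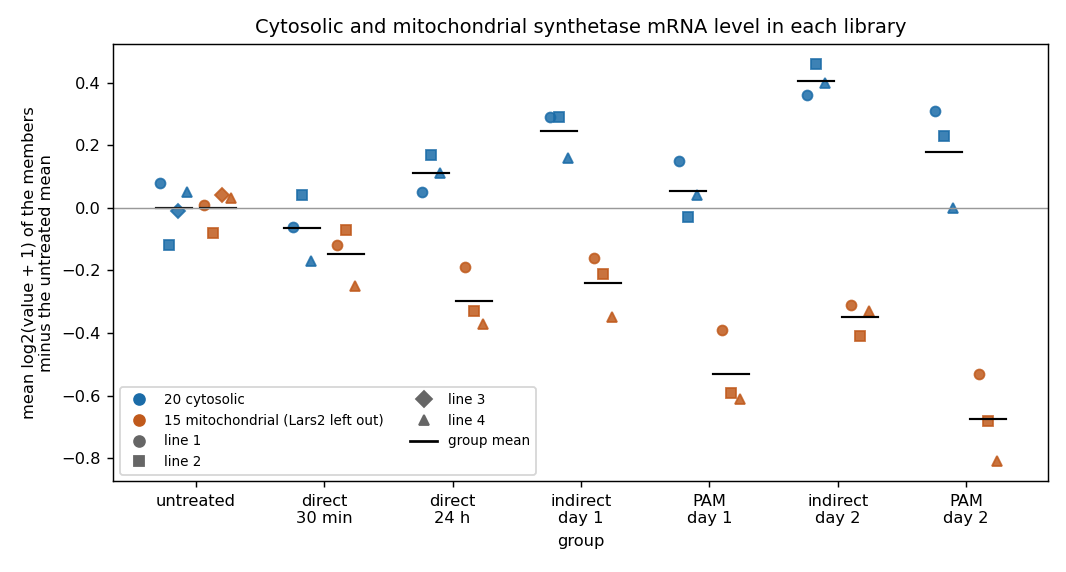
Mean log2(value + 1) over the 20 cytosolic genes (blue) and over 15 mitochondrial genes without Lars2 (orange) in each library, minus the mean of the untreated libraries, by group, with marker shape for the organoid line and a bar for the group mean. The blue points of the indirect day 2 group lie at 0.36 to 0.46 and the orange points at -0.41 to -0.31, while in direct 30 min both kinds lie at or below 0.04.

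Per library, the mean over the cytosolic genes minus the mean over all 16 mitochondrial genes lay between -0.04 and 0.06 in the 4 untreated libraries and between -0.05 and 0.10 in the 3 direct 30 min libraries. It lay between 0.22 and 0.47 in direct 24 h, between 0.42 and 0.48 in indirect day 1 and between 0.49 and 0.60 in PAM day 1. In indirect day 2 it lay between 0.68 and 0.84, and in PAM day 2 between 0.66 and 0.90. All 15 libraries of these 5 groups thus stood above all untreated and direct 30 min libraries, in each of the 3 lines. The difference between the medians of the kinds was 0.06 for direct 30 min, 0.36 for direct 24 h, 0.52 for indirect day 1, 0.45 for PAM day 1, 0.80 for indirect day 2 and 0.82 for PAM day 2.

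Cars and Sars were the synthetases that passed the threshold upwards, in both day 2 groups, where 6.20% and 6.82% of all genes did so. Cars (ENSMUSG00000010755, chr7:143557230-143600090) was measured at 1105, 1075, 1199 and 1148 in untreated lines 1 to 4. It was at 1504, 1571 and 1453 in direct 24 h, at 2024, 1941 and 1784 in indirect day 1 and at 1758, 1549 and 1618 in PAM day 1, in lines 1, 2 and 4. It reached 2582, 2849 and 2485 in indirect day 2 and 2712, 3112 and 2446 in PAM day 2. The 5 groups other than direct 30 min lay wholly above the untreated libraries, and the day 2 groups lay wholly above the day 1 groups. The log2 fold change was 1.22 ± 0.08 in indirect day 2 (adjusted p = 4.028e-05) and 1.28 ± 0.10 in PAM day 2 (adjusted p = 0.000320).

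Sars (ENSMUSG00000068739, chr3:108424865-108445209) was at 3604, 3487, 3449 and 3916 in untreated lines 1 to 4. In lines 1, 2 and 4 it was at 7184, 7889 and 7937 in indirect day 2 and at 7780, 7942 and 6601 in PAM day 2. All 6 of these values lay above the highest in any other group, 5807 in indirect day 1. The log2 fold change was 1.09 ± 0.08 in indirect day 2 (adjusted p = 4.980e-05) and 1.04 ± 0.10 in PAM day 2 (adjusted p = 0.000347). Sars stood close to the cut-off of 1, and in PAM day 2 it did not pass without line 2 or after quantile normalization.

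Aars and Nars came next. Aars, the alanyl-tRNA synthetase (ENSMUSG00000031960, chr8:111033144-111057664), was at 3730 to 4395 in untreated libraries, at 8078, 8652 and 7870 in indirect day 2 and at 8039, 7679 and 7499 in PAM day 2. Its fold was 1.99 in indirect day 2, just short of the cut-off, so it did not pass there with all libraries. It passed when untreated line 1, untreated line 4 or line 1 or 4 of the treated group was left out. In PAM day 2 it passed after median-of-ratios scaling. Of its exon bases, 14.29% are shared on the same strand with Exosc6, so its count is uncertain by what that gene contributes. Nars, for asparagine, was at 4323 to 4687 in untreated libraries and at 8814, 9482 and 8085 in indirect day 2, with a fold of 1.95. In PAM day 2 it was at 8785, 8308 and 6243, with a fold of 1.71 and line 4 the lowest.

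Gars, Wars, Eprs and Mars rose less. In indirect day 2 the folds were 1.68 for Gars, 1.58 for Wars, 1.73 for Eprs and 1.66 for Mars, the methionyl-tRNA synthetase. Wars, for tryptophan, was the member that rose in all 3 day 1 groups and in indirect day 2 but not in PAM day 2, where it was at 3958, 3524 and 2994 against 2516 to 3285 untreated (adjusted p = 0.102). Mars shares 68 exon bases with Ddit3 on the opposite strand, a gene whose own mean went from 220 in untreated to 1160 in indirect day 2. The use of strand in counting is not given in the sources used here, and the part of that overlap was not tested. Lars, Tars, Yars, Iars and Rars also rose in indirect day 2, by 0.54, 0.48, 0.47, 0.45 and 0.31.

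Some cytosolic genes fell or stayed within their spread. Dars (ENSMUSG00000026356, chr1:128363707-128417368) was at 2149, 1849, 1920 and 1891 in untreated lines 1 to 4, at 1312, 1468 and 1364 in indirect day 2 and at 1341, 1415 and 925 in PAM day 2. All treated libraries of both day 2 groups lay below the untreated ones, and line 4 of PAM day 2 was the lowest. The log2 fold change was -0.50 ± 0.08 in indirect day 2 (adjusted p = 0.00162) and -0.69 ± 0.15 in PAM day 2 (adjusted p = 0.00727). Farsb fell in PAM day 1, indirect day 2 and PAM day 2, with fold values of 0.772, 0.840 and 0.670. Its partner subunit Farsa fell in PAM day 1, at -0.27, and Qars fell in both day 2 groups, at -0.24 and -0.34. Kars, for lysine, fell in PAM day 2 at -0.40. Hars and Vars had an adjusted p above 0.05 in all 6 groups, with log2 fold changes of -0.18 to 0.06 and of -0.49 to 0.18 across the 5 groups other than direct 30 min.

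Within the cytosolic set, genes for enzymes outside the multi-synthetase complex and genes of the complex were counted separately. In indirect day 2, 8 of the 12 genes outside the complex rose and 1 fell, with a median of 0.57. Of the 8 complex members, 5 rose and 2 fell there, with a median of 0.38. In PAM day 2, 5 of 12 rose and 1 fell, with a median of 0.26, against 2 of 8 that rose and 3 that fell, with a median of 0.00. In PAM day 1, 6 of 12 rose and 2 fell, against 0 of 8 and 1 of 8. Of all genes, 20.3% rose and 23.5% fell in indirect day 2, 18.5% and 29.1% in PAM day 2, and 15.2% and 26.6% in PAM day 1. The difference between these groups of enzymes was not tested.

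**Figure D3:**
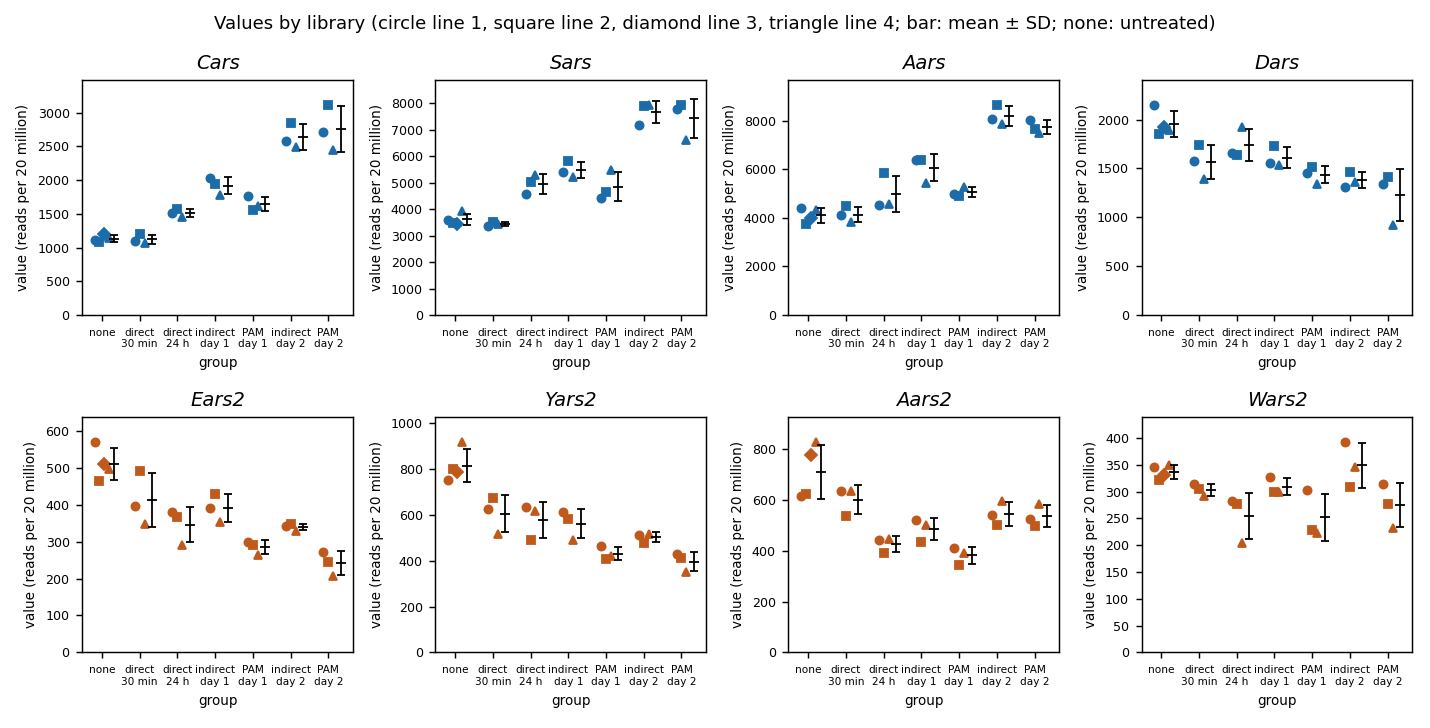
Values (reads per 20 M) of 4 cytosolic genes (top, blue) and 4 mitochondrial genes (bottom, orange) in every library by group, with marker shape for the line and mean ± SD beside the points (n = 4 untreated, n = 3 in each other group). Cars goes from 1075 to 1199 in untreated libraries to at most 3112 in PAM day 2, whereas Ears2 goes from 465 to 569 down to 208 to 272, and Aars2 is lowest in PAM day 1.

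Among the mitochondrial genes, Ears2 and Yars2 passed the threshold downwards, in PAM day 2 only among the comparisons made, where 10.5% of all genes did so. Ears2, the mitochondrial glutamyl-tRNA synthetase (ENSMUSG00000030871, chr7:122037213-122067263), was at 569, 465, 509 and 496 in untreated lines 1 to 4. It was at 379, 366 and 291 in direct 24 h, at 391, 429 and 354 in indirect day 1 and at 300, 291 and 264 in PAM day 1, in lines 1, 2 and 4. It was at 343, 347 and 330 in indirect day 2 and at 272, 245 and 208 in PAM day 2. These 5 groups lay wholly below the untreated libraries, and PAM lay below indirect treatment on either day. The log2 fold change in PAM day 2 was -1.08 ± 0.13 (adjusted p = 0.000693).

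Yars2 (ENSMUSG00000022792, chr16:16302965-16309640) was at 754, 802, 788 and 917 in untreated lines 1 to 4, at 464, 408 and 421 in PAM day 1, at 511, 477 and 518 in indirect day 2 and at 430, 410 and 349 in PAM day 2. All treated libraries, those of direct 30 min included, lay below the untreated range. The log2 fold change was -1.04 ± 0.12 in PAM day 2 (adjusted p = 0.000516). Both genes were near the cut-off: without line 4 of PAM day 2, or after quantile or median-of-ratios scaling, neither passed, and without untreated line 4 Yars2 did not. They fell in all 5 groups, as did Aars2.

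Aars2, the mitochondrial alanyl-tRNA synthetase (ENSMUSG00000023938, chr17:45506841-45520843), was at 614, 623, 776 and 827 in untreated lines 1 to 4 and at 410, 345 and 391 in PAM day 1, its lowest group. In PAM day 2 it was at 525, 498 and 584, above all PAM day 1 libraries. The difference between these groups was 0.49 ± 0.14 with an adjusted p of 0.0861, so it missed the test. Sars2, Hars2 and Wars2 also had their lowest mean in PAM day 1, at 272, 563 and 252. For Vars2 the lower of the PAM values was that of day 2, with log2 fold changes of 0.04 in PAM day 1 and -0.61 in PAM day 2. Its difference between the days was -0.65 ± 0.21 with an adjusted p of 0.109, and -0.65 ± 0.11 with the line as a block (adjusted p = 0.0322).

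Of the remaining mitochondrial genes, Cars2, Mars2, Fars2, Iars2, Sars2, Tars2, Hars2, Nars2, Pars2, Rars2 and Wars2 fell in 1 to 4 of the 5 groups, and none rose in any. In PAM day 2 the values ran from -0.30 for Wars2 to -0.95 for Cars2, with -0.85 for Pars2 and -0.83 for Mars2. Wars2, for tryptophan, fell in PAM day 1, at -0.43, and was at 392, 309 and 346 in indirect day 2 against 322 to 349 untreated. Iars2 shares 22.89% of its exon bases with Rab3gap2 on the opposite strand, and Hars shares 195 bases with Hars2. Farsb, Fars2, Vars2 and Cars2 share 9.47%, 8.72%, 8.52% and 5.83% of theirs with Sgpp2, Nrn1, Gm20483 and Naxd, also on the opposite strand. Some further members have smaller overlaps of this kind. All these counts are less certain than those of members with no overlap.

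Lars2, for leucine, was the member whose value in direct 30 min and in PAM day 2 was set by single libraries. It was at 2868 in direct 30 min line 1 and at 4961 in PAM day 2 line 1, while the other 20 libraries lay between 653 and 1260. In PAM day 1 Lars2 was at 1063 to 1260, wholly above the 847 to 1062 of untreated libraries, with a log2 fold change of 0.30. AY036118, a transcript within a ribosomal RNA locus on chromosome 17, was at 5715 and 15506 in those libraries and at 180 to 4799 in the others. The mitochondrial ribosomal RNA mt-Rnr2 and the abundant transcript Gm26917 did not stand out in the same way, at 102452 and 525971 in the former library and at 78483 and 551151 in the latter, against 64876 to 111010 and 353124 to 599376 in the other 20. Gm42418, another abundant transcript, was at 79879 in the former and at 91491 in the latter, against 55596 to 80401 in the other 20, so that it stood above them in PAM day 2 line 1. No window of 100 bases of the Lars2 transcripts was identical to one in an annotated transcript of another gene. That search cannot find inexact matches or sequence outside the annotation, so the origin of the high values was not tested. The PAM day 2 log2 fold change of Lars2 was 0.44 ± 0.65 with all libraries (adjusted p = 0.597) and -0.53 ± 0.13 without line 1 of that group (adjusted p = 0.0146). In direct 30 min it was 0.59 ± 0.34 with all libraries and 0.08 ± 0.12 without line 1. With Lars2 left out, all 15 other mitochondrial genes had a log2 fold change below 0 in PAM day 2, and the mitochondrial median went from -0.64 to -0.66.

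**Figure D4:**
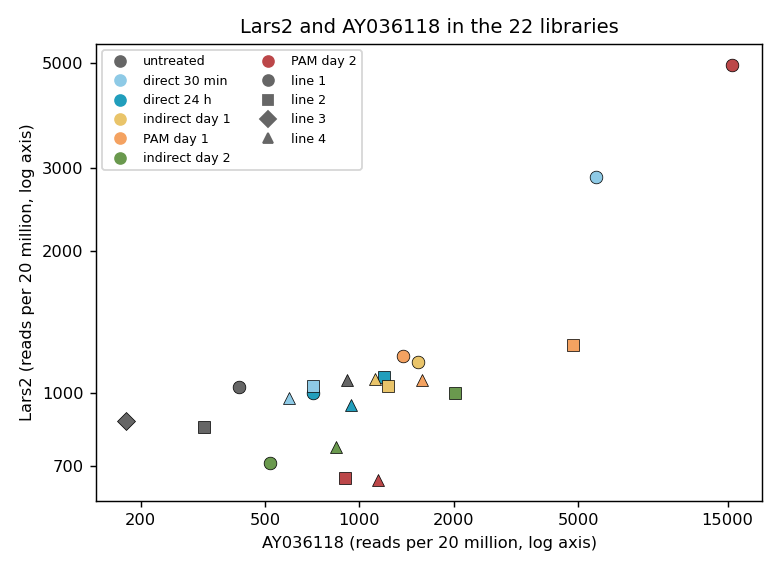
Lars2 against AY036118 in the 22 libraries, both as reads per 20 M on log axes, with colour for the group and marker shape for the line. The PAM day 2 and direct 30 min libraries of line 1 stand apart at the upper right, at 4961 and 2868 for Lars2, and the other 20 libraries lie between 653 and 1260.

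Set side by side as 17 pairs that serve the same amino acid, the cytosolic gene had the higher log2 fold change in 15 pairs over the day 1 comparison, in 17 in each indirect group, in 15 in PAM day 1 and PAM day 2 and in 14 in direct 24 h. In direct 30 min the count was 12. Eprs stands in 2 of these pairs and Fars2 in 2, so the pairs are not independent. The median difference within pairs was 0.07 in direct 30 min, 0.54 in indirect day 1, 0.87 in indirect day 2 and 0.89 in PAM day 2. For cysteine the difference in PAM day 2 was the largest of the 17, at 2.23, from 1.28 for Cars to -0.95 for Cars2. For phenylalanine both Farsb and Fars2 were at -0.58 in that group, whereas Farsa was at -0.21.

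**Figure D5:**
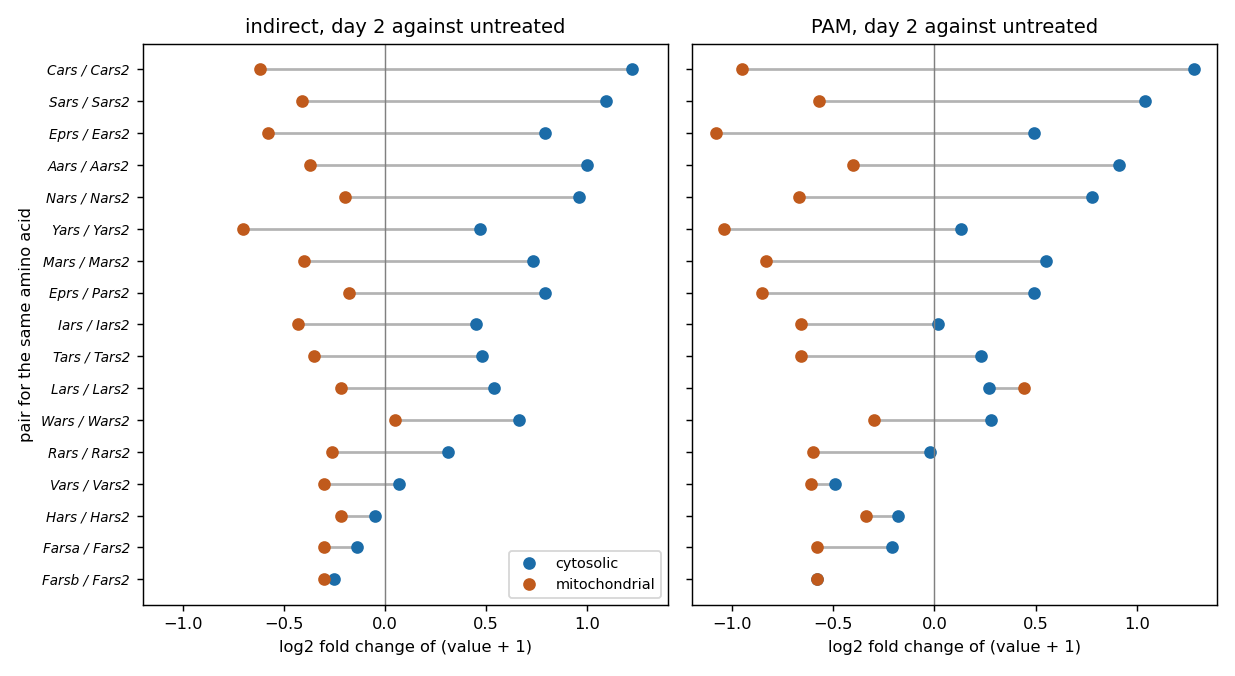
Log2 fold change of the cytosolic gene (blue) and the mitochondrial gene (orange) for the same amino acid, against the untreated libraries, in indirect day 2 (left) and PAM day 2 (right), ordered by the difference in indirect day 2. The cytosolic gene lies to the right in 17 of 17 pairs on the left, the span is widest for Cars and Cars2 at 2.23 in PAM day 2, and Lars2, at 0.44, lies to the right of Lars there.

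The day 2 and day 1 groups of the same route could be compared without the untreated libraries. By the paper's design, these groups also differ in the age of the treated medium and in the time on fresh medium before the endpoint. Such differences cannot be told apart from that in the starting day. For indirect treatment, Cars was higher on day 2 by 0.46 ± 0.09 (adjusted p = 0.0461) and Sars by 0.48 ± 0.08 (adjusted p = 0.0359), and no other member had an adjusted p under 0.05, beside 3.37% of all genes. With the line as a block, which called 23.6% of all genes, 8 cytosolic genes were higher on day 2 (Aars, Cars, Eprs, Gars, Mars, Nars, Sars and Tars) and 4 mitochondrial genes were lower (Cars2, Iars2, Lars2 and Vars2). For PAM, 0 of 36 members had an adjusted p under 0.05 and 7 an unadjusted one, where 0% of all genes were called and 26.8% had an unadjusted p under 0.05. With the block, which called 10.6% of all genes, Aars, Cars and Mars were higher by 0.61, 0.74 and 0.48 and Vars2 differed by -0.65.

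Other genes of the same pathways were taken from lists of gene names. Of 30 genes linked to the ATF4 amino acid response, all tested, 21 rose and 0 fell over the day 1 comparison, 11 of them past the threshold, with a median of 0.51, where 14.8% of all genes rose and 4.27% passed upwards. In indirect day 2, 27 of 30 rose and 17 passed, with a median of 1.14, where 20.3% and 6.20% of all genes did. In PAM day 2, 20 of 30 rose and 13 passed, with a median of 0.89, where 18.5% and 6.82% did. In PAM day 1, 15 rose and 2 fell, with 10 past the threshold and a median of 0.36, where 15.2% of all genes rose. The log2 fold changes of Slc7a11, the cystine transporter, were 2.39, 2.73 and 3.15 over the day 1 comparison, in indirect day 2 and in PAM day 2, and those of Ddit3, which encodes CHOP, were 1.55, 2.39 and 2.32. Those of Chac1, which degrades glutathione, were 2.05, 2.90 and 2.57. In direct 30 min 0 of the 30 had an adjusted p under 0.05, with a median of 0.06 and 1.07 ± 0.23 for Slc7a11 (adjusted p = 0.102).

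Of 12 partners and synthetase genes outside the symbol rule, 0 rose and 8 fell over the day 1 comparison, with a median of -0.34. Tarsl2, a cytosolic threonyl-tRNA synthetase, passed the threshold downwards in both day 2 groups, at -1.04 in the indirect group and -1.19 in the PAM group. Among the scaffold proteins of the multi-synthetase complex, Aimp2 fell in both, at -0.38 and -0.59, whereas Aimp1 was at -0.07 and -0.17 with an adjusted p above 0.05. Of 11 mitochondrial translation factors tested, 7 fell over the day 1 comparison, 8 in indirect day 2 and 9 in PAM day 2, with 0 that rose. Of 78 mitochondrial ribosomal protein genes, 35, 44 and 51 fell and 0, 1 and 2 rose in these comparisons, with medians of -0.29, -0.32 and -0.40. Of all genes, 18.7%, 23.5% and 29.1% fell there and 14.8%, 20.3% and 18.5% rose. Of 16 cytosolic elongation and initiation factors, 4, 6 and 7 fell and 0, 1 and 0 rose, beside the same shares of all genes, with medians of -0.16, -0.15 and -0.22.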

How the data were processed

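RNA from 22 organoid libraries was sequenced by the study as paired reads of 100 bases. The authors trimmed with Trimmomatic 0.36, aligned with STAR 2.5.3a to GRCm38 and counted reads per gene with HTSeq 0.9.1. The deposited values are a score: counts scaled by the authors to 20 M per library, rounded up and not divided by gene length, which sum to 20007540 to 20016513 in each library. All 22 columns were used and 0 left out. Depth was estimated from the steps among low values, a method that on 8 simulated libraries had an error of 0.0 M reads. Values were fitted with limma 3.58.1 (R 4.3.3), a trended moderated test on log2(value + 1) over genes at 10 or more in at least 3 libraries fitted, with Benjamini-Hochberg adjustment over all genes tested and only the groups compared in each fit. On simulated libraries with 18429 genes tested, the 9 against 4 comparison recovered 43% of changes of 0.5 and 100% of changes of 1.5 (log2) at an adjusted p under 0.05. With 17957 genes tested, indirect day 2 against untreated recovered 7% and 100%. Only 100 genes were changed by each size there, whereas 20.3% of genes rose and 23.5% fell in the real indirect day 2 fit. The adjustment was thus stricter in the simulation. The spread of the simulated reads was also set the same for all genes and was not estimated from these data. For both reasons these rates do not give the power of the real fits. Settings changed in turn were the scaling, pseudocount, low-value filter, samples in the fit, line as a block and libraries left out, and, chosen after seeing the data, Lars2 left out.

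The members and lists were chosen with earlier results of these data known. The members named with all values were those past the threshold against untreated libraries, then those with the largest change either way in each kind and comparison. Of other lists, up to 6 genes with the lowest adjusted p could be named. Aars, Nars, Wars, Vars2 and the overlapping genes among members, and Aimp1, were named after their values were seen. Gene positions and exon lengths came from GENCODE M21 (GRCm38) and promoters from RefSeq (GRCm38.p6). Protein features were planned but not analysed here. Libraries of a line come from 1 mouse, and the line is the replicate number of the labels. In a check of pairing, given as a description, deviations from group means correlated between libraries of a line with a median r of 0.536 (63 pairs), against -0.306 between lines. The untreated libraries of lines 1 and 2 followed treated libraries of each other's line, at a median r of 0.541 and 0.353, more closely than those of their own, at 0.0751 and 0.132, so blocked values against untreated libraries are less certain. None of 24 replicate pairs held identical values.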

Additional observations from a re-analysis of the deposited data

Results flagged for a closer look

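In untreated libraries, 2 of 36 members had 1 library far from the others by Dixon's ratio, about as many as chance gives at 1 in 20. For Farsa the ratio was 0.855, with line 4 at 2079 against 1796 to 1837 in the other lines. For Cars2 it was 0.837, with line 3 at 716 against 630 to 644.

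The change of 2 members differed between indirect treatment from day 2 and from day 1 by limma's test of these groups. Cars was higher on day 2 by 0.46 (adjusted p = 0.0461) and Sars by 0.48 (adjusted p = 0.0359), in 3 of 3 lines each. Neither remained under 0.05 when any 1 of the 6 libraries was left out.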

How the results depend on the processing

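With the cut-off loosened to an adjusted p of 0.05 at any fold change, 19 members were called over the day 1 comparison, 9 in direct 24 h, 16 in indirect day 1, 22 in PAM day 1, 26 in indirect day 2, 25 in PAM day 2 and 2 in indirect day 2 against day 1. Quantile normalization left 1 member past the threshold in PAM day 2 (Cars) and lowered the cytosolic minus mitochondrial median to 0.34 in PAM day 1, 0.64 in PAM day 2, 0.28 in indirect day 2 against day 1 and 0.13 in PAM day 2 against day 1. The cause was not tested. It moved the median of all genes by 0.118 in PAM day 2, and median-of-ratios scaling moved it by 0.120 in PAM day 1 and by 0.125 in direct 24 h against 30 min. No median difference changed sign.

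Leaving out 1 library at a time gave 2 to 4 members past the threshold in indirect day 2, the highest without line 4 of that group (Aars, Cars, Nars and Sars), and 2 to 5 in PAM day 2, the lowest without line 4 (Cars and Sars). The count was 0 in the other comparisons. The median difference then ran from 0.39 to 0.49 over the day 1 comparison, 0.05 to 0.08 in direct 30 min, 0.30 to 0.49 in direct 24 h, 0.49 to 0.57 in indirect day 1, 0.43 to 0.52 in PAM day 1, 0.73 to 0.86 in indirect day 2 and 0.68 to 0.93 in PAM day 2. Between treated groups it ran from 0.26 to 0.39 for direct 24 h against 30 min, 0.29 to 0.42 for indirect day 2 against day 1, 0.23 to 0.36 for PAM day 2 against day 1 and 0.12 to 0.22 for PAM day 1 against direct 24 h. With a replicate block for the organoid line, counts past the threshold were 2 in indirect day 2, 4 in PAM day 2 and 0 elsewhere, and at an adjusted p under 0.05 they were 14, 4, 9, 20, 21, 23 and 12 in the order of the 7 comparisons with calls above.

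Of 117 log2 fold changes of single members under an adjusted p of 0.05, 0 changed sign under any setting. The number that no longer passed was 28 with the block, 20 with quantile normalization, 19 with no filter on low values, 14 with median-of-ratios scaling, 7 with all groups in 1 fit and 0 with a pseudocount of 10. In simulated libraries with 3 libraries in the treated group, most changes of 0.5 were missed. Far fewer genes changed there than were called in the real indirect day 2 fit, and the simulated spread was not estimated from these data. Changes of this size may still be missed in the real fits, at a rate that was not tested. A mouse stands behind each line, so the 9 libraries of the day 1 comparison come from 3 mice and its p-values without the block treat them as independent.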
